A study of Caenorhabditis elegans with 2 samples.

Results

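The regions described here are promoters at which UNC-98::GFP was found on chromatin and where every protein-coding gene within reach of the summit reads the same way. In the nematode *Caenorhabditis elegans*, UNC-98 carries C2H2 zinc fingers; it sits where body wall muscle is attached and has also been seen in nuclei. Chromatin came from whole larvae, starved at the L1 stage and labelled as 6 hours old, in 2 biological replicates that form 1 group. The strain, OP85, carries the transgene wgIs85, in which unc-98 is joined to TY1, EGFP and 3xFLAG tags beside an unc-119(+) rescue gene, over the mutation unc-119(ed3). An anti-GFP antibody was used on sonicated fragments of 200 to 800 bp. No untagged strain was analysed here, and whole larvae give no information on the cell type in which a region was bound. The deposited lists were made with a control file and hold regions with a signal value but no reads, so the depth of each library is unknown.

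Regions were taken first from the conservative list, which rests on both replicates, and then from the second series list and the list of each replicate where they overlapped nothing already taken. This gave 947 regions. Each coding transcript was given a promoter window, reaching 1000 bp before its 5′ end and 500 bp past it. In 386 regions, 40.8% of all (95% Wilson interval 37.7 to 43.9%), the summit lay in such a window and all the coding genes there were on a single strand. Another 211 summits lay in windows of genes on both strands and 350 lay in no window, and these are called two-strand and distal regions below. Of the one-strand regions, 312 came from the conservative list, 53 from the second series list, 14 from replicate 1 and 7 from replicate 2. They faced 380 genes, 1.90% of the 19973 protein-coding genes. In 365 regions the window held 1 gene and in 21 it held 2.

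In the compact genome of this nematode, divergent neighbours often share the DNA between their 5′ ends, so a region there cannot be assigned to either gene. At a one-strand promoter the direction of transcription is known, which lets position and sequence be read along the gene. Many transcripts are trans-spliced to a spliced leader, so the annotated 5′ end often marks the splice site or the start codon and the true start of transcription can lie further upstream. A further feature of such promoters is that several repeated DNA families are scattered through them.

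Short strings of bases recurred among the strongest one-strand regions, and 6 windows that carry them are shown first. Each is 200 bases of the RefSeq copy of build WBcel235 around the summit, along the strand of the gene. Capitals mark the best match to a 19-letter word, described below, and the 8-letter word CTAGGCCA or its reverse complement TGGCCTAG.
cyn-10 (chrII:6913406-6913605, minus): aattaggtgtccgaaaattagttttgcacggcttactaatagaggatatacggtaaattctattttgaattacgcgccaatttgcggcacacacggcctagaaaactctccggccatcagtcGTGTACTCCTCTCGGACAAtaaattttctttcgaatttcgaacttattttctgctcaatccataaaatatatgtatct
Y65A5A.2, first region (chrIV:16415194-16415393, plus): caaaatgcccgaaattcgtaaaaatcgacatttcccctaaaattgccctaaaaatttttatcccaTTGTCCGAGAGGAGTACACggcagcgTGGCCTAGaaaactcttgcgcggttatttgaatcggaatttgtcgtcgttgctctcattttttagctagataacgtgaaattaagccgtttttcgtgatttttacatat
Y65A5A.2, other region (chrIV:16415693-16415892, plus): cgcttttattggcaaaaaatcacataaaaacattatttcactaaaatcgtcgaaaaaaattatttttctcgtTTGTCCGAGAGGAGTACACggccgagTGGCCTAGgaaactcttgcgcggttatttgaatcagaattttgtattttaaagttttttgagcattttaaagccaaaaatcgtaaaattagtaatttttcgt
Y73B6BL.29 (chrIV:6321803-6322002, plus): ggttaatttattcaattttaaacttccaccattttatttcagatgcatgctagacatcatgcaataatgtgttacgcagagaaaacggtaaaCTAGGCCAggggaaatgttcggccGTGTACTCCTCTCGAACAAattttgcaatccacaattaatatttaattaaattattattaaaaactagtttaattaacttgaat
thoc-5 (chrIII:5349345-5349544, minus): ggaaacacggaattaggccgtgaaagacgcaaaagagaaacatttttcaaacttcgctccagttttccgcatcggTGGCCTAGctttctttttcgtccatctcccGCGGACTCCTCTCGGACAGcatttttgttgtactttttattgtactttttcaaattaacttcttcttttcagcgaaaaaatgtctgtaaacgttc
cnk-1 (chrIII:10270862-10271061, plus): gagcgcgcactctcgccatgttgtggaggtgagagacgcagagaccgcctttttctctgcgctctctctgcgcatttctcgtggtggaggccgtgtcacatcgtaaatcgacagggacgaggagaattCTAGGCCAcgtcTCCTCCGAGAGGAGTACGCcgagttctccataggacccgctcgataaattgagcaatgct

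Another 3 windows hold a different repeated string. Capitals mark copies of the word AAGGGGAT or its reverse complement ATCCCCTT. The windows of eel-1 and rps-24 share an unbroken run of 83 bases, and those of eel-1 and Y62F5A.12 share 69 bases on opposite strands.
eel-1 (chrIV:3050397-3050596, minus): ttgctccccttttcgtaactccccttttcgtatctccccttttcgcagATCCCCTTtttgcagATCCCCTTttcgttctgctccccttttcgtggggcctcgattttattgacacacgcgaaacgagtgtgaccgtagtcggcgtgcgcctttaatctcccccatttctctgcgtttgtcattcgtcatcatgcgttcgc
rps-24 (chrIV:385431-385630, plus): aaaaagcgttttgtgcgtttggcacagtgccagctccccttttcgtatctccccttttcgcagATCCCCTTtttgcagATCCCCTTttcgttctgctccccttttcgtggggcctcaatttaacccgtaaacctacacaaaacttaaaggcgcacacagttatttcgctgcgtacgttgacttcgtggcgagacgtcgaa
Y62F5A.12 (chrII:11534890-11535089, minus): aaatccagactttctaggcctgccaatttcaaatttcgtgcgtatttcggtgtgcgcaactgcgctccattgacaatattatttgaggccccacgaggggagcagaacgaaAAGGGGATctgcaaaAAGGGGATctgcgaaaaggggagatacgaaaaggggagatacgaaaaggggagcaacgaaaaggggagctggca

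The strongest one-strand region of all, at mog-4, holds none of these words. It shares a run of 25 bases, in capitals, with the region at brc-1.
mog-4 (chrII:14561751-14561950, minus): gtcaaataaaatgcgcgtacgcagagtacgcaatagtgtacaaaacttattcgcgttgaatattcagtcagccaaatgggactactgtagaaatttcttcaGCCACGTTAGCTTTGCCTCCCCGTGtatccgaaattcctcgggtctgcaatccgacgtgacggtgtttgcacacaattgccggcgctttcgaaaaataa
brc-1 (chrIII:3854996-3855195, minus): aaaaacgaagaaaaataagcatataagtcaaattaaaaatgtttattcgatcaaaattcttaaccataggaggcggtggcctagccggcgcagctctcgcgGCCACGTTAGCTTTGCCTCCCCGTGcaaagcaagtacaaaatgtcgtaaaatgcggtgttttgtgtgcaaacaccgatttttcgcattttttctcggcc

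The regions with the highest deposited signal were those at mog-4, cnk-1, C34C12.9, K08F11.1 and eel-1. Signal is the value the authors' software gave each region, on a scale not stated, and serves here to rank regions within a list. The region at mog-4, which encodes a DEAH-box splicing helicase, had a signal of 594 in the conservative list, 392 in replicate 1 and 211 in replicate 2. That at cnk-1, a scaffold of Ras signalling, had 443, 281 and 170.4. Both were called in the thresholded list of each replicate, with summits 251 and 295 bp upstream of the nearest 5′ end.

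The region at eel-1, a HECT-type ubiquitin ligase, had a signal of 433 in the conservative list, 262 in replicate 1 and 224 in replicate 2. A weaker region further upstream of the same gene had 181 in the conservative list. At rpl-3, a protein of the large ribosomal subunit, the values were 422, 288 and 124. The values at rps-24, of the small subunit, were 303, 176 and 135. All 3 of these strongest regions lay between genes, 289 to 392 bp upstream.

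The region at cyn-10, a cyclophilin, had 326 in the conservative list, 152 in replicate 1 and 172 in replicate 2. At thoc-5, of the THO complex that links transcription to mRNA export, the values were 325, 213 and 109.8. At lem-2, an inner nuclear membrane protein, they were 297, 168 and 118, and at cdc-48.1, an AAA ATPase of protein turnover, 281, 205 and 71.2. Of these 4, only cyn-10 was higher in replicate 2 than in replicate 1.

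Several of the 20 highest regions lay away from the usual place. The summit at C34C12.9 was 889 bp upstream (signal 440.1). The summit at K08F11.1 (439) lay 452 bp downstream of the nearest 5′ end. At ints-4, of the Integrator complex, the summit lay 63 bp downstream in an exon, with 185 in replicate 1 and 102 in replicate 2, and it was called in replicate 1 alone. Y65A5A.2 held both of the regions shown above, at 299.6 and 278, and their windows share the 19-letter word without a mismatch. No region of any list lay in the windows of unc-98 or unc-119, the genes present on the transgene.

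Summits gathered upstream of the 5′ end. The median summit lay 229.5 bp upstream, with quartiles at 426 and 102 bp upstream, and 337 of 386 (87.3%, interval 83.6 to 90.3%) were upstream. Of all positions that would be classed as one-strand, 63.5% are upstream. The stretch from 100 to 300 bp upstream held 144 summits (37.3%), where it holds 13.7% of positions. The 50 bp bins on the upstream side of the 5′ end, from 100 bp inwards, held 5.44 and 6.48% of summits and 3.65 and 3.83% of positions. The first 2 bins on the downstream side held 1.55% of summits each, and 3.86 and 3.73% of positions. Most regions of a series list have a fixed width of 316 bp with the summit at the middle, which limits how finely these distances can be read.

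**Figure D1:**
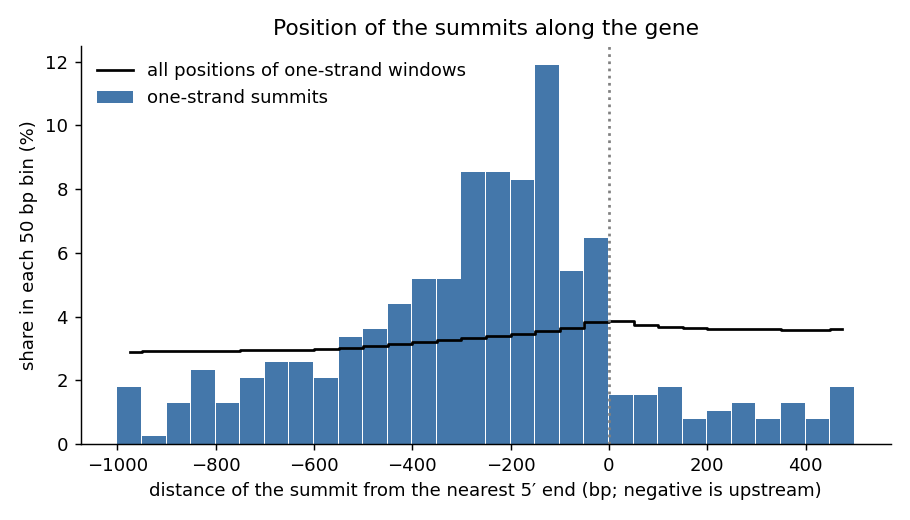
Share of the 386 one-strand summits (bars) and of all positions in one-strand windows (line) in 50 bp bins of distance from the nearest 5′ end; negative distances are upstream. The tallest bar, 11.9%, covers 150 to 100 bp upstream, and each bar downstream of the 5′ end holds under 2% of summits.

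Most summits, 257 of 386, lay between genes. A further 92 lay inside the gene they face, 66 in an intron and 26 in an exon. How all one-strand positions divide among these places was not counted, so the counts have no background beside them. In the conservative list the median signal was 114 for summits between genes (n = 207), 92.5 in introns of the own gene (n = 57) and 79.9 in its exons (n = 18). Another 17 summits lay inside another coding gene. Among them was the region at mtcu-2, whose summit lies within let-268 on the same strand (244 in the conservative list). Regions at 1 promoter were sometimes split: 30 members had another summit within 250 bp, and 7 of the 8 conservative regions with a signal under 28 were of this kind.

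Windows of 2 genes on the same strand were led by rps-28 with Y41D4B.4 (233 in the conservative list), pqn-51 with K11D12.14 (199) and F10E9.11 with sas-4 (164), the last a centriole assembly gene. The nearest coding gene upstream read the same way in 218 of 386 regions (56.5%, interval 51.5 to 61.3%). Among 15754 one-strand promoters over all genes, taken 200 bp upstream of the outermost 5′ end, 68.0% had such a tandem neighbour. Chromosome I held 20.5% of members and 13.5% of those promoters, and chromosome III 18.7% and 12.4%. Chromosome V held 14.8% and 25.1%, and X 10.9% and 16.0%. Two-strand regions were rarer still on X, at 4 of 211, while 78 of 350 distal regions lay there.

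Agreement between the replicates was partial. Of the one-strand regions, 129 (33.4%, interval 28.9 to 38.3%) overlapped a region in both thresholded replicate lists, against 32.0% of all 947 regions. Another 126 were called in replicate 1 alone, 29 in replicate 2 alone and 102 in neither. Replicate 1 has the longer list, and 221 of 309 conservative members (71.5%) had the higher signal there. Across these 309 regions the signals of the replicates had a Spearman correlation of 0.656, as a description of regions in 2 libraries. The conservative list was itself cut by agreement between the replicates, so this value is in part selected and is no independent measure of agreement.

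Most regions called in 1 replicate alone also had a ranked region in the other. Members called in both had a median signal of 104 in replicate 1 and 81.6 in replicate 2. Those called in replicate 1 alone had 57.3 in replicate 1 and 33.6 in replicate 2 (n = 126 and 120), and those in replicate 2 alone had 38.5 and 49.8 (n = 27 and 29). The medians leave out regions with no value in that replicate. Ranked by the conservative signal and behind ints-4, the strongest called in replicate 1 alone were rpl-35 (188 in replicate 1, 63.7 in replicate 2) and the window of egl-30, a Gq alpha subunit, with C53H9.4 (125 and 36.8). By the same ranking the strongest called in replicate 2 alone were smu-1, a splicing factor (85.3 in replicate 1, 68.0 in replicate 2), snr-4, an Sm protein of the spliceosome (58.5 and 59.3), and mog-3 (45.1 and 73.6). At snr-4 the signals of the replicates lay close together although the call differed.

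**Figure D2:**
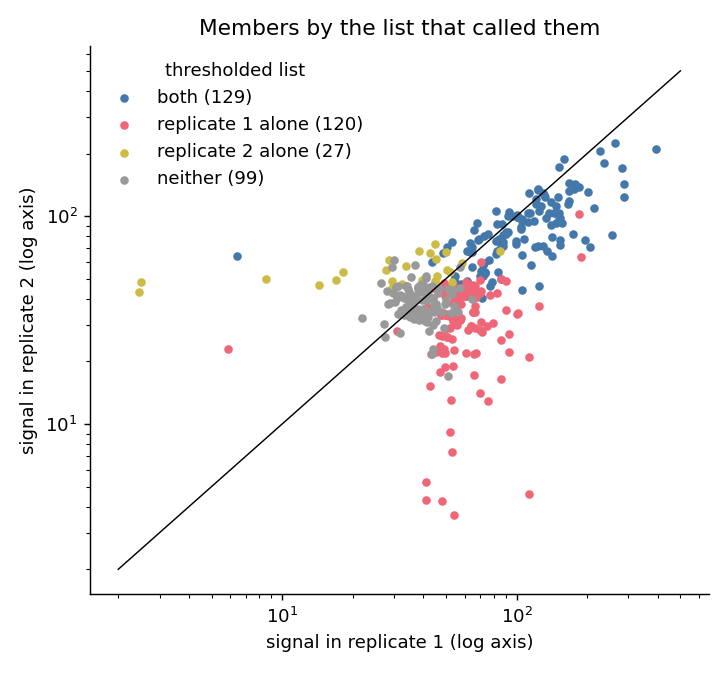
Deposited signal of each one-strand region in the ranked list of replicate 1 (horizontal) and replicate 2 (vertical), both on log axes, coloured by the thresholded lists that called it; the line marks equal signal. Regions called in both replicates sit at the upper right with medians of 104 and 81.6, and those called in neither centre on 38.5 and 39.0.

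Fisher's exact tests, 5 in all, two-sided and adjusted together by the method of Benjamini and Hochberg, set one-strand regions against the other classes; they compare regions within these 2 libraries, not conditions. One-strand regions carried less signal than two-strand regions. In the conservative list 153 of 312 one-strand regions (49.0%) lay above the median of the list, which by construction 50.0% of its regions exceed, against 111 of 165 two-strand regions (67.3%). The odds ratio was 0.468 (95% interval 0.316 to 0.694, Fisher's exact test, adjusted p = 7.71e-04). The median signal was 105 in one-strand, 133 in two-strand and 95.1 in distal regions of the conservative list, with wide overlap (quartiles 80.4 to 165 and 92.9 to 200.5 in the first and second). With promoter windows of 500 to 250 bp or of 2000 to 500 bp the odds ratios were 0.595 and 0.675 and the adjusted p was 0.0552 for each, so the call depends on the window.

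Against distal regions, of which 100 of 251 (39.8%) lay above the median, the odds ratio was 1.45 (interval 1.04 to 2.03, exact test, adjusted p = 0.0552), which misses the threshold of 0.05. It was 1.78 with the signal of replicate 1 alone (exact test, adjusted p = 0.00219) and 0.968 with that of replicate 2 (adjusted p = 0.865), so this difference was seen in replicate 1 only. One-strand regions were called in both replicates more often than distal regions, 89 of 350 (25.4%), with an odds ratio of 1.47 (interval 1.07 to 2.03, exact test, adjusted p = 0.0478). That call was lost in the conservative list alone (1.27, exact test, adjusted p = 0.240) and where an overlap had to cover 50% of the shorter region (1.43, adjusted p = 0.0563). Against two-strand regions, 85 of 211 (40.3%), the odds ratio was 0.744 (interval 0.526 to 1.05, exact test, adjusted p = 0.135), and in the conservative list alone it was 0.655 (adjusted p = 0.0414). The calls come from replicate lists that the rule also draws on, and a region added from 1 such list could hardly count as called in both. The conservative list gave 312 of 386 one-strand and 251 of 350 distal regions. The comparisons of calls over all regions are therefore not independent of the rule.

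Non-coding genes of kinds other than piRNA lay within 200 bp of 70 one-strand summits (18.1%) and of 30 two-strand summits (14.2%), against 19.5% of all 947 regions. The odds ratio was 1.34 (interval 0.839 to 2.13, exact test, adjusted p = 0.252). Most were genes of the annotation's general ncRNA class, near 58 summits, and 17 summits lay near a tRNA gene, 10 near a snoRNA gene and 5 near a snRNA gene. Of the regions near a tRNA, snoRNA or snRNA gene, the strongest was that at F59C6.18 (340.3 in the conservative list), which lies 808 bp upstream of that coding gene and within 200 bp of the snoRNA gene F59C6.15. Next among them came the regions at H41C03.3 (268) and egg-5 (197), each beside a gene of the SL2 spliced leader RNA, sls-2.1 and sls-2.4. Then followed cmtr-1 (141), beside the snoRNA gene Y53F4B.47, and snr-4 (136), beside the snRNA gene T11F9.15. The strongest region beside a gene of the general ncRNA class was that at K08F11.1 (439). For these regions the coding gene in the window and the small RNA gene cannot be told apart as the neighbour that matters.

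The DNA under the summit was richer in G and C than its surroundings. In 200 bp around the summit the median GC content was 43.0% (quartiles 38.5 to 49.0%), against 33.5% in 15756 one-strand promoters over all genes. The flank 500 bp upstream had a median of 35.0%, and the summit was higher in 299 regions, lower in 80 and equal in 7 (exact sign test, two-sided, adjusted p = 1.50e-30; median difference 8.50 percentage points). The flank 500 bp downstream had 39.0%, and the summit was higher in 244 regions and lower in 138 (exact sign test, adjusted p = 6.45e-08; median difference 4.50 points). In 50 bp windows the mean rose from 35.2% (SD 11.1) 200 bp upstream to 49.1% (SD 11.9) at the summit and was 36.7% (SD 11.3) 200 bp downstream. At two-strand and distal summits the median GC content in 200 bp was 41.0 and 45.0%, so a high value is not particular to one-strand regions. Sequencing coverage can follow GC content, and its part in the calls was not tested.

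**Figure D3:**
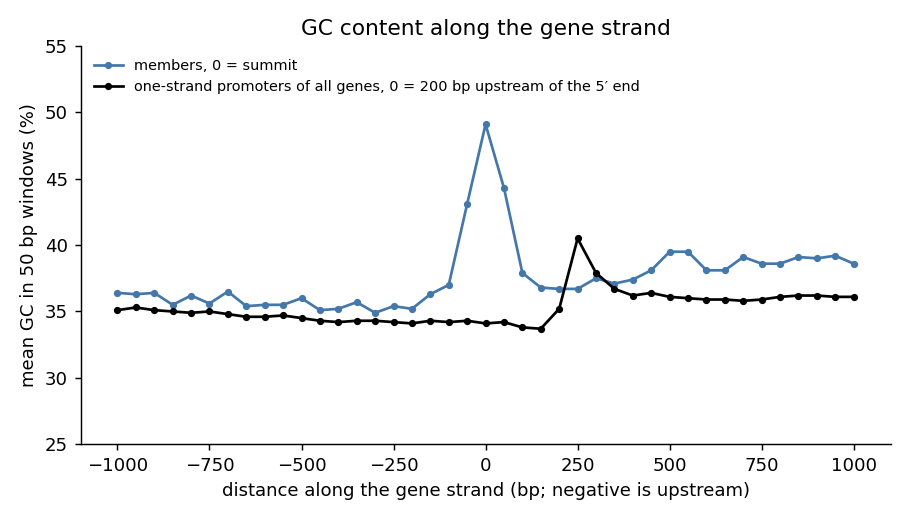
Mean GC content in 50 bp windows along the gene strand, around the summit of the 386 one-strand regions (blue) and around a point 200 bp upstream of the 5′ end of 15756 one-strand promoters over all genes (black). The regions reach 49.1% at the summit from about 35% on the upstream side, while the black line is at 34.1% at its centre and rises only at the 5′ end.

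Motifs were searched as exact letters on both strands of the 200 bp windows, as a description. CTGCGTC was in 58 one-strand regions (15.0%) and in 2.93% of the reference promoters, and GAGAGAG in 64 (16.6%) and 4.76%. Both were also in distal regions, at 15.7 and 17.4%. Part of this goes with GC content: among windows of at least 38.5% GC, CTGCGTC was in 18.0% of members and 6.97% of reference promoters, and GAGAGAG in 20.4 and 10.9%. The E-box CACGTG was in 6.48% of members and 3.36% of reference promoters, and TTCCCGC, a letter run of E2F-type sites, in 5.96 and 2.19%. In the windows of at least 38.5% GC these were in 7.48 and 5.37% and in 6.12 and 3.86%. Distal regions held CACGTG and TTCCCGC at 10.9 and 8.29%, above the members, and two-strand regions at 4.27 and 6.16%. Rarer in members than in reference promoters were TATAAA (15.3 and 24.7%), TTTTTTT (29.0 and 42.0%) and CTTATCA, which holds the core of GATA-type sites (1.30 and 5.50%). In the windows of at least 38.5% GC the first of these no longer stood apart (10.9 and 12.5%), nor did the second (23.8 and 23.5%), while CTTATCA was in 1.70 and 4.96%. CTTATCA was also rare in two-strand (0.474%) and distal regions (2.00%).

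The 8-letter words in capitals above stand high in a ranking of 8-letter words by their share in the members over that in reference promoters. Their excess is how they were chosen and not a test. CTCTCGGA was at rank 4, CTAGGCCA at 9 and AAGGGGAT at 2. Other words of the ranking were not followed as words of their own, but several overlap those that were. CCGAGAGG at rank 1 has the reverse complement CCTCTCGG, which lies within the longer word built around CTCTCGGA below. GTGGCCTA at rank 5 has the reverse complement TAGGCCAC, which overlaps CTAGGCCA. GAGCGCGC at rank 7 lies in none of these words. CTCTCGGA was in 29 members (7.51%, interval 5.28 to 10.6%) and 0.520% of reference promoters. CTAGGCCA was in 38 (9.84%, interval 7.26 to 13.2%) and 0.768%. The choice did not use the other classes: two-strand regions held the words at 8.53 and 14.2%, and distal regions at 0.857 and 1.43%. Unlike CTCTCGGA and CTAGGCCA, the listed motifs CTGCGTC and GAGAGAG were about as common in distal regions as in members. Among GC-rich windows the shares were 6.46 and 0.797% for CTCTCGGA and 7.48 and 1.59% for CTAGGCCA, in members and reference promoters.

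A longer word was built around CTCTCGGA, whose 8 letters were chosen on the one-strand regions, while the letters beside it were read from the two-strand regions. Around 18 copies of CTCTCGGA there, adjoining positions were kept where at least 60% of copies had the same base. Together with the 8 letters of CTCTCGGA, the same in every copy by choice, they gave the 19-letter word GTGTACTCCTCTCGGACAA. The ranking on one-strand regions also holds words that cover outer letters of it. Among them are CTCGGACA at rank 3 and, as its reverse complement, GTGTACTC at rank 10. Reading the outer letters from two-strand regions therefore does not make the long word independent of the one-strand regions. With up to 4 mismatches the long word was in 37 one-strand regions (9.59%, interval 7.03 to 12.9%). It was in 32 of 211 two-strand regions (15.2%, interval 11.0 to 20.6%), where its outer letters were read. In 4 of 350 distal regions (1.14%) and in 0.432% of reference promoters it was also found. Since it holds CTCTCGGA, its share in one-strand regions is not independent of that choice. Of the 37 matches, 8 had no mismatch and 7 had 1. The centre of the match lay within 50 bp of the summit in 33 (89.2%). It read along the gene in 26 and against it in 11. Where CTAGGCCA was also present, the centres of both words lay from 17.5 bp (cnk-1) to 45.5 bp (sluh-7) apart. The directions were mixed, and in those 2 windows the words read opposite ways. In both Y65A5A.2 windows and in ttb-1, which encodes the transcription factor TFIIB, the centres lay 20.5 bp apart in the same direction. The windows of Y65A5A.2 and ttb-1 also fall in 1 group of shared runs, given below.

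Regions with the long word carried more signal. In the conservative list the median was 203 with it (quartiles 122 to 265, n = 31) and 101 without (77.7 to 152, n = 281). The same order held in replicate 1, at 113 and 57.2, and in replicate 2, at 92.8 and 46.1. With the conservative members ranked by signal and cut into 4 groups of 78, from the highest down 20, 5, 5 and 1 held it. CTAGGCCA was in 13, 12, 5 and 3 of the same groups. Of the 20 highest members, 9 held the long word, an 8-letter word of this pair or AAGGGGAT.

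**Figure D4:**
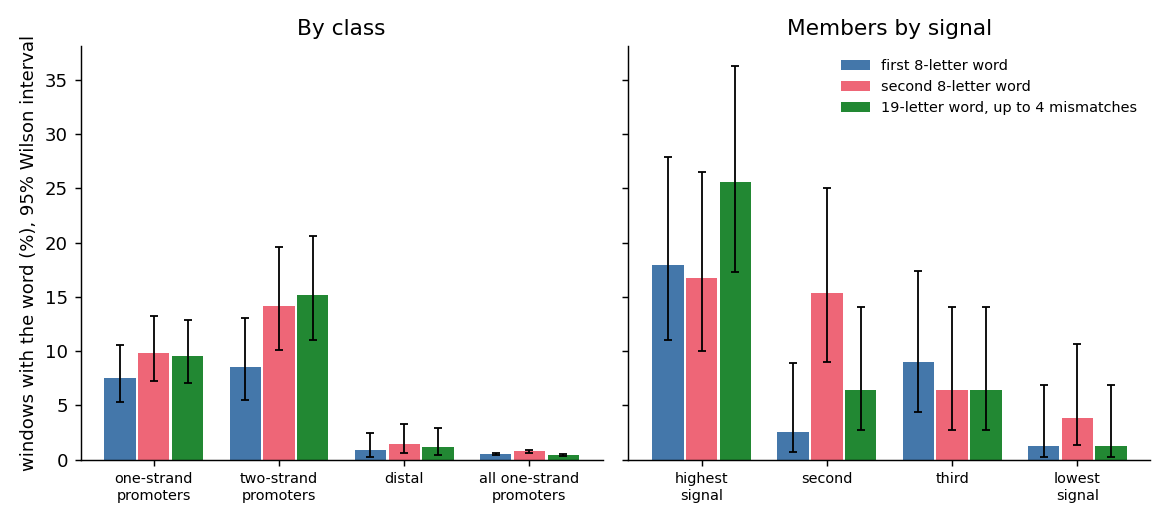
Share of 200 bp windows with CTCTCGGA, CTAGGCCA or the 19-letter word (up to 4 mismatches), by class of region on the left and by 4 equal groups of conservative one-strand regions ranked by signal on the right; bars carry 95% Wilson intervals. The 19-letter word is in 25.6% of the highest group and 1.28% of the lowest, and distal regions stay below 1.5% for each.

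Most copies of the long word at one-strand and distal positions lay outside the listed regions. The genome holds 27 copies without a mismatch at one-strand positions, of which 10 (37.0%, interval 21.5 to 55.8%) were inside a region of the lists. At distal positions 33 exact copies were found and 0 lay in a region, which allows a share of up to 9.09% by the limit of 3 counts (upper Wilson bound 10.4%). With 1 mismatch the counts were 9 of 63 (14.3%) and 1 of 65 (1.54%). With 2 to 4 mismatches 2.98 to 6.90% of copies at one-strand positions were inside a region, and at distal positions 0.276 to 0.621%. At two-strand positions 5 of 7 exact copies (71.4%) and 12 of 22 with 1 mismatch (54.5%) were inside a region, so a high share is not particular to one-strand positions. The word was first seen in bound promoters, and its outer letters in two-strand regions and in the ranking on members, so both levels are in part chosen. The exact copies at cpn-3 lie in 1 region, and the interval counts them as independent.

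Copies with at most 1 mismatch at one-strand positions are called bound inside a listed region and unbound outside one. They were described by GC content, soft-masking and position, with no test. The 19 bound copies had a median GC content of 37.0% in the surrounding 200 bp and the 71 unbound copies 33.5%. Soft-masked bases made up a median of 56.5% of the window in each. Their median position was 206 bp upstream for the bound copies and 394 bp for the unbound. The bound exact copies lay at cyn-10, npp-8, a nuclear pore gene, F26G1.1, ari-1.4, ttb-1, cpn-3 with 3 copies in tandem, and Y65A5A.2 with 2. Unbound exact copies included those upstream of ppk-2, unc-93 and dyf-1. How reads that match several places in the genome were treated is not given in the sources used here, and its part in which copies were listed was not tested.

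**Figure D5:**
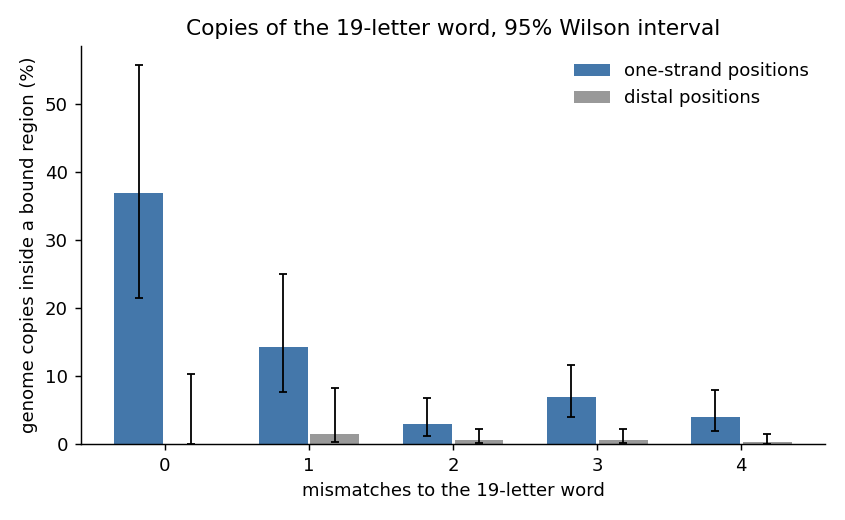
Share of genome copies of the 19-letter word that lie inside a region of the lists, by number of mismatches, at one-strand (blue) and distal (grey) positions, with 95% Wilson intervals. At one-strand positions it is 37.0% without a mismatch and 14.3% with 1. At distal positions it is at or under 1.54% throughout. Two-strand positions, not drawn, had 71.4 and 54.5% without a mismatch and with 1.

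AAGGGGAT, chosen in the same way, was in 21 members (5.44%, interval 3.59 to 8.17%) and in 0.343% of reference promoters, with 3.32% of two-strand and 2.29% of distal regions. In 13 of the 21 it came at least 2 times, and Y32B12B.4 had 5 copies. The 21 were all in the conservative list, with a median signal of 121 against 104 for the other 291. Counting any shared run of at least 20 bases, simple repeats left out, 74 of 386 one-strand regions (19.2%) shared one with another one-strand region more than 1000 bp away or on another chromosome. No such count was made for reference promoters or the other classes, so this share is not shown to set the members apart. The 74 regions fell into 18 groups. The largest, of 20 regions, held cyn-10, Y65A5A.2, npp-8 and ttb-1, and the next, of 15, held eel-1, rps-24 and Y62F5A.12. Pairs joined only to each other included rpl-3 with cox-5A, a subunit of cytochrome c oxidase, and K08F11.1 with rpa-2, a subunit of replication protein A. In windows of over 50% soft-masked bases lay 19.4% of members, 24.6% of reference promoters and 36.2% of the 58 members with CTCTCGGA or CTAGGCCA.

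Genes of 20 lists were counted among the 380, as a description without a test, beside the 1.90% of all protein-coding genes. Among cytosolic ribosomal proteins 9 of 81 had a one-strand region (11.1%) and 16 a two-strand one; behind rpl-3 and rps-24 came rpl-35 (241 in the conservative list) and rps-28 (233). Of 42 translation factors 4 had one, led by the initiation factor subunits eif-3.B (229) and eif-3.C (142). Of 72 chaperones and co-chaperones 6 had one, led by bag-1 (241), the constitutive Hsp70 gene hsp-1 (216) and dnj-9 (144). Of 80 genes of RNA polymerases and general transcription 7 had one, with taf-12 (182) and rpb-11 (114) after ints-4. Of 76 splicing and hnRNP genes 6 had one, with snr-4 (136) and mog-3 (132) after mog-4.

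Other lists of basic machinery had shares between 0 and 7.69%. Mitochondrial ribosomal proteins had 4 of 70, led by mrpl-28 (187). Respiratory chain and ATP synthase genes had 2 of 51, cox-5A (256) and cox-5B (127). Aminoacyl-tRNA synthetases had 1 of 31, kars-1 (229.6). Proteasome subunits had 2 of 33, pas-1 (95.8) and rpn-11 (77.7), and nuclear pore genes 2 of 26, npp-8 (102) and npp-18 (91.7). Of 20 genes of the vacuolar ATPase 0 had one.

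Chemoreceptor families had 2 of 1311 genes with a one-strand region (0.153%), srh-2 (125) and sre-23 (80.5). F-box and MATH-BTB genes had 2 of 395 (0.506%), C-type lectins 0 of 240, nuclear hormone receptors 3 of 269 (1.12%) and collagens 2 of 156 (1.28%). Histone genes had 1 of 72, his-37 (88.3), and homeobox genes of the ceh series 0 of 63.

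Of 33 genes of body wall muscle contraction 7 had a one-strand region (21.2%), the highest one-strand share of the 20 lists, and 1 had a two-strand region. This order covers one-strand regions only: two-strand regions were at 16 of 81 cytosolic ribosomal protein genes and 13 of 72 chaperone genes. Signals at the 7 muscle genes were modest. At unc-54, a muscle myosin heavy chain, the values were 98.1 in the conservative list, 41.3 in replicate 1 and 45.5 in replicate 2, below the conservative median of one-strand regions (105). At unc-22, the giant muscle protein twitchin, they were 93.2, 48.8 and 43.7, with the summit 287 bp downstream in an intron.

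The calcium pump gene sca-1 had regions of 87.4 and 72.7, and mup-2, a troponin T, 80.8. The calponin gene cpn-3 had 79.9 and the actin genes act-4 and act-1 had 68.9 and 49.5, the last from the replicate 1 list. The summit at mup-2 lay inside the ncRNA gene T22E5.10. Those at unc-22, at act-1 and of the stronger sca-1 region lay within 200 bp of non-coding genes. There the muscle gene and the non-coding gene cannot be told apart as the neighbour that matters. None of the regions at these muscle genes was called in both replicates. Of 28 muscle attachment genes 2 had one: unc-23, a BAG-type co-chaperone (94.1), and unc-82, a protein kinase of muscle (60.9), each called in neither replicate list.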

How the data were processed

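ChIP-seq of UNC-98::GFP was analysed from the deposited region lists of 2 replicates. Per the file headers and descriptions, reads were aligned to build ce11 and lists were made with a control file; no source used here names the software for alignment or for calling regions. In the lists, the deposited signal is the value of each region, on a scale not stated; the deposited −log10 IDR (the irreproducible discovery rate, capped at 5) starts at 2.00 in the thresholded lists, an IDR of 0.01. Without read counts depth is unknown, so intervals cover the number of regions only. The 16 per-input columns of the 2 ranked series lists name no sample and were not used.

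Regions of 4 thresholded lists (728, 790, 577 and 394) were joined and classed by the summit with the coding transcripts of Ensembl release 115. The signal of a replicate was that of the ranked region with most shared bases. Sequence was the RefSeq copy of WBcel235, the same build. Reference promoters were 200 bp windows centred 200 bp upstream of the outermost 5′ end, kept where one-strand. Fisher's exact tests (5) and exact sign tests (2) were adjusted within each family, threshold 0.05 (Python 3.11.15, scipy 1.17.1). Windows, word search and tests were tested on simulated data. Named genes were those of the 20 highest conservative regions, up to 4 of each list and all muscle genes, the highest 3 called in each replicate alone, the highest 5 inside another gene, near small RNA genes or with most genes in the window, unc-98 and unc-119; brc-1, Y62F5A.12, Y32B12B.4 and the genes named with word copies or shared runs were chosen after their values were seen. Some of the genes and windows so chosen are not reported here. Serpin and signal recognition particle genes, first matched by the symbol pattern of the chemoreceptor list, were taken out of it. The members, lists and words were chosen with earlier results of these data known. Alternatives covered lists, each replicate, IDR, windows, 5′ ends, overlap, cut, GC windows and flanks; those for the words and the autosomes were chosen after seeing the data. With 1 group, samples could not be compared between groups.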

Additional observations from a re-analysis of the deposited data

How the results depend on the processing

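The number of one-strand regions was 64.5 and 39.6% of the 386 in the lists of replicates 1 and 2 alone (249 and 153), and 30.8% at an IDR of 0.001 or less; under the other alternatives it lay between 312 and 385 regions. Of the 386, 288 remained with windows of 500 to 250 bp and 309 with windows of 2000 to 500 bp. Signal against two-strand regions kept its direction throughout; its odds ratio of 0.468 was 0.595 and 0.675 with the other windows, past the threshold no longer, and 0.423 to 0.573 with each replicate's own signal. Signal against distal regions reversed to 0.968 with replicate 2 alone and was 1.78, now past the threshold, with replicate 1 alone; the cause was not tested. Calls in both replicates against distal regions fell to 1.43 with the stricter overlap and 1.27 in the conservative list, and against two-strand regions the odds ratio was 0.655 there and past the threshold. Non-coding neighbours kept their side of the threshold, as did both GC comparisons, where the summit was higher in 74.5 to 83.8% of unequal pairs upstream and 61.7 to 75.9% downstream. The share of members with CTCTCGGA or CTAGGCCA, 15.0%, was 20.9 and 20.1% in the lists of replicates 2 and 1 alone. No paired analysis was possible because there is 1 group. The number of regions, not read depth, sets the intervals.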
